A study of Mus musculus with 35 samples.

Results

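The loss of 2 E2F repressors was compared with the loss of 3 E2F activators in mouse liver at 2 months of age. The measure was a difference of differences: the change in livers lacking E2f7 and E2f8 against their wild type, minus the change in livers lacking E2f1, E2f2 and E2f3 against theirs, here called the departure. It used 12 of the 35 arrays of the series, chosen by genotype, age and normalization run and not by any measured level of a gene, and it was taken for each of 18193 genes. A departure above 0 means that the gene stood higher after loss of the repressors than after loss of the activators, each relative to its own wild type. Values are log2 signals, so that 1 unit is a 2-fold difference.

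The E2f7/E2f8 knockout livers (4 arrays) carried Albumin-Cre E2f7loxp/loxp E2f8loxp/loxp on an FVB background. Albumin-Cre is a recombinase line active in hepatocytes, and cells outside that lineage are not targeted by it. The E2f1/E2f2/E2f3 knockout livers (3 arrays) carried Mx1-Cre E2f1-/- E2f2-/- E2f3loxp/loxp on a mixed C57B/L6 and FVB background. Mx1-Cre is driven by an interferon-inducible promoter, and the E2f1 and E2f2 null alleles are present in every cell of the animal. The 5 wild-type arrays came from FVB livers, 3 in the run of the E2f7/E2f8 knockout (wild type 1 to 3) and 2 in the run of the E2f1/E2f2/E2f3 knockout (wild type 4 and 5). The knockouts thus differ in the E2F genes lost, in the Cre line, in the cells that lost them and in the background, and these cannot be told apart. The samples are labelled as separate, with nothing on whether each is a separate animal, so p-values measure spread between samples. That spread was estimated for each gene over all arrays of the series and not over these groups alone. The same estimate served both runs, so a wider spread in the run of the E2f1/E2f2/E2f3 knockout would be understated.

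E2F proteins bind DNA as a family with opposed members. E2F1, E2F2 and E2F3 activate genes of the G1 to S transition and DNA replication and are held in check by the retinoblastoma family of pocket proteins, while E2F7 and E2F8 are atypical members that bind without a dimerization partner and repress many of the same genes. In adult liver most hepatocytes are quiescent and often polyploid, and the balance of these E2Fs is known to act on endocycles and ploidy there.

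All 12 arrays had high signals of liver genes. The 8 hepatocyte genes examined (Alb, Ttr, Apoa1, Serpina1b, Cps1, Asgr1, Hnf4a and Cyp2e1) stood at 12.18 or above in every array. Their mean signals over the 12 arrays were each above those of at least 97.97% of genes. E2f1/E2f2/E2f3 knockout replicate 3 stood apart from the others. It differed by over 1 log2 from replicates 1 and 2 of its group in 386 and 394 genes, against 29 genes between replicates 1 and 2, 202 between wild type 4 and 5, and 35 to 93 between arrays of the other groups. Results that rest on it are given with and without it. The runs also differed in control probe sets, with a Gapdh 3' minus 5' signal of 1.62 to 1.99 in the first run and 0.27 to 0.55 in the second, while the same difference for beta-actin ran the other way, 0.19 to 0.41 and 0.91 to 1.26. Each knockout and its own wild type lay in 1 run, and the part of the runs in the departures was not tested beyond that. In whole liver RNA, fewer cells of a type and less RNA per cell cannot be told apart.

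The departure was called in 122 of 18193 genes (0.671%) with limma at a Benjamini-Hochberg adjusted p under 0.05, 67 higher (0.368%) and 55 lower (0.302%). With all arrays quantile-normalized together the split turned, to 43 higher and 53 lower. A fit on the 12 arrays alone, without the spread of the others, called 17 departures, 16 of them among the 122. The departure shares its arrays with the knockout effects it is made of, so these are given as its parts and not as further support. The E2f1/E2f2/E2f3 effect was itself called in 118 of the 122 genes, against a background of 597 of all genes (3.28%), and it was the larger of the effects in 119. The E2f7/E2f8 effect was called in 1 of the 122, Yae1d1, against 2 of all genes (0.011%), Yae1d1 higher (0.0055%) and Gm2788 lower (0.0055%). At an unadjusted p under 0.05 there were 739 genes (4.06%) for the E2f7/E2f8 effect, 2921 (16.1%) for the E2f1/E2f2/E2f3 effect and 1936 (10.6%) for the departure. Car14, Tnrc18 and 2810021J22Rik had a called departure with neither effect called, and 0 genes had both effects called in opposite directions. The effects had opposite signs in 96 of the 122 genes and the same sign in 26. A large difference between the effects was the ground for choosing these genes and itself favours opposite signs. The counts are therefore a description and no sign of opposed regulation. Their median sizes in the 122 were 0.14 for the E2f7/E2f8 and 0.77 for the E2f1/E2f2/E2f3 effect, against 0.06 and 0.11 over all genes. Across all genes the effects had a Pearson r of 0.08 and a Spearman rho of 0.07, as a description over 18193 genes measured on the same arrays.

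**Figure D1:**
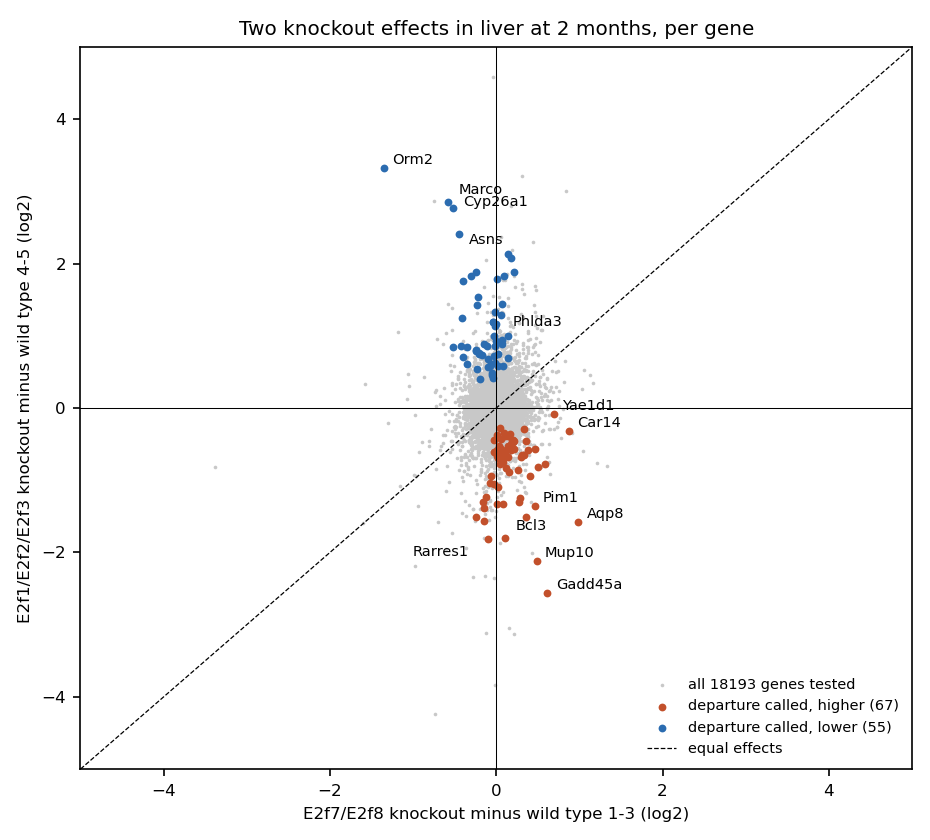
Each point is a gene, with the E2f7/E2f8 knockout effect on the horizontal axis and the E2f1/E2f2/E2f3 knockout effect on the vertical axis (both log2, knockout minus wild type of its own run). Orange points have a called departure above 0 (67 genes), blue points below 0 (55 genes), and the dashed line marks equal effects. The called genes spread along the vertical axis, from 3.32 for Orm2 to -2.56 for Gadd45a, and less along the horizontal axis, from -1.35 for Orm2 to 0.99 for Aqp8, with Car14 at 0.88 and Yae1d1 at 0.69.

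The arrays of the E2f1/E2f2/E2f3 knockout did not overlap wild type 4 and 5 in 121 of the 122 genes, which held for 26.4% of all genes. Those of the E2f7/E2f8 knockout did not overlap wild type 1 to 3 in 20 of them, against 5.89% of all genes. In 18 of the 122 genes the groups were separate in both runs and in opposite directions. Choosing the 122 by the difference of the knockout effects favours such separation, and its share over all genes was not counted. Leaving out each of the 12 arrays in turn, 26 genes kept their call in all 12 fits and 96 lost it in at least 1. The calls were most often lost without wild type 4 (67), wild type 5 (59) or E2f1/E2f2/E2f3 knockout replicate 3 (56). Without that replicate the count was 84, with 66 of the 122 among them.

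The targeted genes were described first. E2f8 had signals of 7.75, 7.44 and 8.58 in wild type 1 to 3 and 9.42, 9.45, 8.07 and 10.10 in the E2f7/E2f8 knockout, against 6.50 and 6.19 in wild type 4 and 5 and 5.74, 5.32 and 5.56 in the E2f1/E2f2/E2f3 knockout. The E2f7/E2f8 knockout arrays were mostly higher than their wild type with overlap at replicate 3, and the E2f1/E2f2/E2f3 knockout arrays all lay below theirs. The departure of 2.13 (SE 0.55) did not pass, with limma adjusted p = 0.0590, and a second E2f8 probe set stood at 0.24 (SE 0.46). Gm2788, a non-coding RNA gene next to E2f8 that was chosen after its values were seen, was lower in all 4 E2f7/E2f8 knockout arrays (6.62, 6.61, 6.46 and 6.21) than in wild type 1 to 3 (10.18, 9.18 and 10.21). That E2f7/E2f8 effect of -3.38 (SE 0.43, adjusted p = 0.000150) was the larger of the 2 called ones. Its departure of -2.56 did not pass (adjusted p = 0.0660). The E2f1/E2f2/E2f3 knockout arrays stood at 8.90, 8.87 and 5.87, with replicate 3 as low as the E2f7/E2f8 knockout, and without that replicate the departure was -3.56 with adjusted p = 1.49e-05.

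The departures of E2f1, E2f2, E2f3 and E2f7 were 0.01, 0.02, -0.08 and -0.22, with 95% intervals of -0.37 to 0.39, -0.37 to 0.41, -0.46 to 0.30 and -0.71 to 0.27. None was called, with limma adjusted p from 0.838 to 0.996. Signals of E2f1 were 6.39, 6.36 and 6.58 in the livers labelled as lacking it and 6.24 and 6.41 in their wild type, which overlap, and E2f2 and E2f3 likewise overlapped. Whether the probes cover the deleted exons was not known here, so these levels do not check the genotypes. The E2F family with its dimerization partners, pocket proteins and associated subunits gave 0 called departures among 20 genes (median -0.02). Rbl1, which encodes the pocket protein p107 and, like other genes below that were not picked by the naming rule, was chosen after its values were seen, stood at 5.06 and 5.36 in wild type 4 and 5 and at 6.22, 5.74 and 7.23 in the E2f1/E2f2/E2f3 knockout. It rose by 1.19 there (SE 0.25, adjusted p = 0.00615), against 0.16 in the E2f7/E2f8 knockout, and its departure of -1.02 (SE 0.33) had adjusted p = 0.165. The rise lost its call without wild type 4 (adjusted p = 0.0806) and kept it, at 0.77, without knockout replicate 3, a change of over 1.5 times.

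Genes of DNA replication, the best known E2F targets, stood higher in livers without the activators and near wild type in livers without the repressors. Of 55 measured members, 47 had a departure below 0 and 8 above it, where 50.9% of all genes lay above 0, and 0 had a called departure. Their median departure was -0.30, beside 0.00 over all genes, made up of a median of 0.03 in the E2f7/E2f8 and 0.37 in the E2f1/E2f2/E2f3 knockout. In the knockout of the activators 8 members were called higher and 0 lower (all genes: 1.71% and 1.57%), and in 30 members all 3 knockout arrays lay above wild type 4 and 5, as in 13.2% of all genes. The mean over the members, relative to own wild type, was 0.22, 0.21 and 0.88 in E2f1/E2f2/E2f3 knockout replicates 1 to 3 and -0.06, 0.15, 0.04 and 0.01 in E2f7/E2f8 knockout replicates 1 to 4. Every E2f1/E2f2/E2f3 knockout array was thus above both groups, with replicate 3 far above the others. Without replicate 3 the medians were -0.15 for the departure and 0.18 for the E2f1/E2f2/E2f3 effect, with 45 members below 0.

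Promoters of 3 of the genes that rose without the activators are shown because their window, 250 bases before to 50 after the start site (RefSeq, build GRCm38.p6), holds a match to a searched E2F motif. The motifs were TTTCCCGC, TTTGGCGC, TTTGCCGC and TTTCGCGC, on both strands, and matches are in capitals. In the first promoter matches on opposite strands overlap, at -153 and -149 from the start site.
Mcm5, chr8:75109259-75109558, plus strand: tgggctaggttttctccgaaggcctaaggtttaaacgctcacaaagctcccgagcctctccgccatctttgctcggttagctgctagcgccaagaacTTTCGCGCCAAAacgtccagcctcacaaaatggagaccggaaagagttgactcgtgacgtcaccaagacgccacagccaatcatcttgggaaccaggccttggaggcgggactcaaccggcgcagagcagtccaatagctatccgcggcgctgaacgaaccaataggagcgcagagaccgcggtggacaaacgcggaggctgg
Cdt1, chr8:122567765-122568064, plus strand: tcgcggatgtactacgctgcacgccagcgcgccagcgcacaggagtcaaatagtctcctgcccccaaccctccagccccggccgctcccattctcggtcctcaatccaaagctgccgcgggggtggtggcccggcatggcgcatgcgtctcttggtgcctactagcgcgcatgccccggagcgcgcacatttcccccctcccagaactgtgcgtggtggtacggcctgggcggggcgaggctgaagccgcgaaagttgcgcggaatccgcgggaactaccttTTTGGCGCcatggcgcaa
Rbl1, chr2:157204485-157204784, minus strand: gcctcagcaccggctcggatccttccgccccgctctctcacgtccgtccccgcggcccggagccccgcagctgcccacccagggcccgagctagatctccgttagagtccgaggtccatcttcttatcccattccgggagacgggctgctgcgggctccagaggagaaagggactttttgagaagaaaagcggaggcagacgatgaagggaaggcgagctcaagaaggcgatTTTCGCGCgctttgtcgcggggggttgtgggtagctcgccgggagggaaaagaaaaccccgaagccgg
The matches of Cdt1 and Rbl1 begin at 32 and -18. A match was held by 18 of 45 promoters of the replication genes (40%) and by 6 of 23 of DNA repair genes (26.1%), beside 5 of 53 of mitosis genes (9.43%), 550 of 14452 tested genes with a promoter in the table (3.81%) and 744 of 32851 windows in all (2.26%). Among genes with a called departure it was held by 1 of 54 that were higher and 0 of 44 that were lower. Among genes with a called E2f1/E2f2/E2f3 effect it was held by 10 of 248 higher (4.03%) and 12 of 219 lower (5.48%). The windows of Mcm2, Prim1, Rpa1, Brca1 and Chek1, which also rose without the activators, held no match. That of Chek1 ends in gcgggaa, with which TTTCCCGC on the other strand would begin, and matches across a window's edge were not tested. A match is a description of these letters and not a binding site.

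Mcm5, a subunit of the replicative helicase, had signals of 6.73 and 6.89 in wild type 4 and 5 and 7.79, 7.84 and 10.29 in the E2f1/E2f2/E2f3 knockout, where it rose by 1.83 (SE 0.50, adjusted p = 0.0383). In the E2f7/E2f8 knockout it was 5.74, 6.66, 6.06 and 5.92, against 5.92, 5.67 and 6.07 in wild type 1 to 3, overlapping and 0.21 apart. Its departure of -1.63 (SE 0.66) had adjusted p = 0.322, and its probe sets ranged from -1.63 to -0.11. Mcm2, of the same helicase, rose by 1.15, the licensing factor Cdt1 by 1.03, the primase subunit Prim1 by 1.02, the GINS subunit Gins1 by 0.76, the RNase H2 subunit Rnaseh2b by 0.72, the single-strand binding protein Rpa1 by 0.54 and the clamp loader subunit Rfc2 by 0.43 in the E2f1/E2f2/E2f3 knockout. In the E2f7/E2f8 knockout the same genes lay between -0.04 and 0.23. Rnaseh2b kept its call without knockout replicate 3 (adjusted p = 0.0409) and lost it without wild type 5 (0.154). The other 7 lost theirs without replicate 3, at effects of 0.29 to 1.01 with adjusted p from 0.169 to 0.285. They also lost them without other arrays: of the 12 fits, Mcm2 and Gins1 lost theirs in 10 each, Rpa1 in 8 (adjusted p up to 0.376, without wild type 4), Mcm5, Cdt1 and Rfc2 in 3 each and Prim1 in 2 (up to 0.346, without wild type 5).

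**Figure D2:**
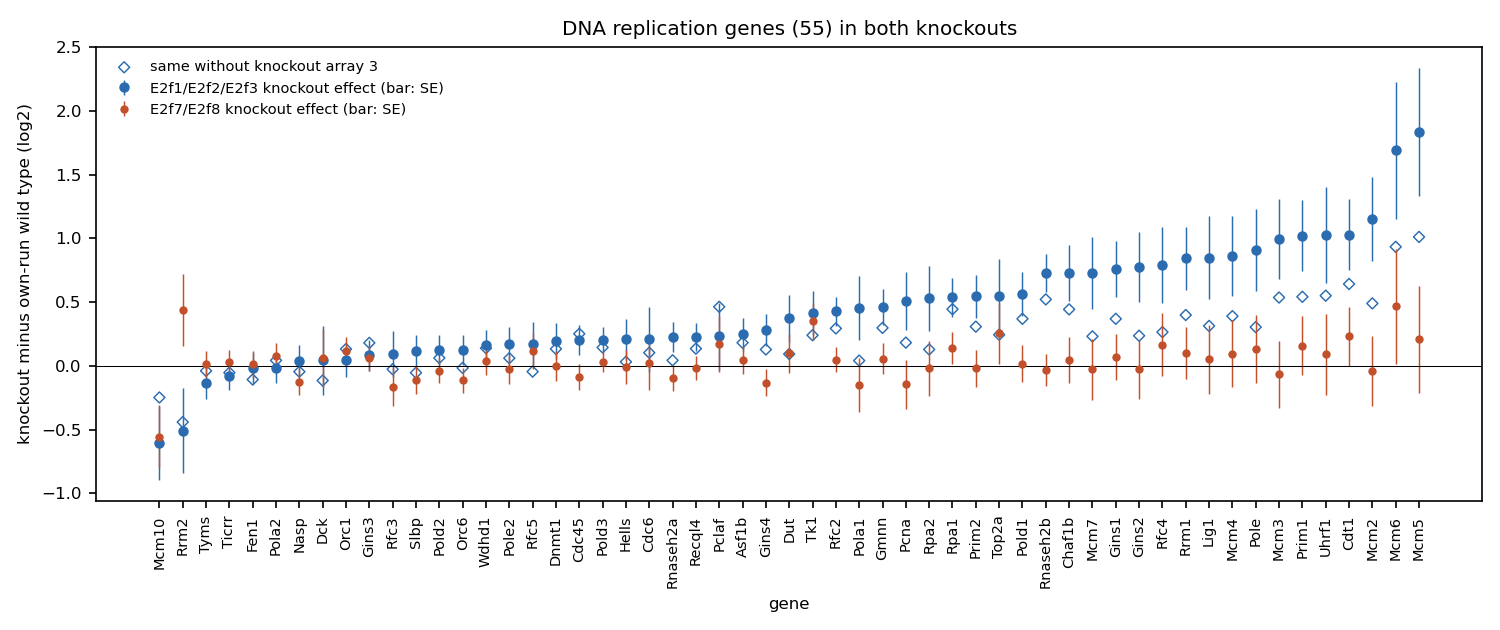
Effects of both knockouts on the 55 measured DNA replication genes, ordered by the E2f1/E2f2/E2f3 effect (log2, knockout minus wild type of its own run; bars are standard errors from the fit). Filled blue points run from -0.60 for Mcm10 to 1.83 for Mcm5, open diamonds give the same effect without knockout replicate 3, and orange points, the E2f7/E2f8 effect, lie near 0 with a median of 0.03.

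DNA repair genes had 0 called departures among 26 (median -0.14, -0.10 without E2f1/E2f2/E2f3 knockout replicate 3). Brca1, of homologous recombination, stood at 5.31 and 6.12 in wild type 4 and 5 and 6.68, 6.95 and 8.44 in the E2f1/E2f2/E2f3 knockout and rose by 1.64 (SE 0.31, adjusted p = 0.00192). Its effect was 1.10 without replicate 3 (adjusted p = 0.0108), and the call was lost without wild type 4 (0.0744). The checkpoint kinase Chek1 rose by 1.55 (adjusted p = 0.0300), a call lost without replicate 3 (0.68, adjusted p = 0.119). Genes of mitosis and cytokinesis had departures on both sides of 0: 30 of 61 lay below it, the median was 0.01, and 0 were called in the departure or either effect. Without E2f1/E2f2/E2f3 knockout replicate 3 the median departure was 0.10, with 41 members above 0 and 20 below. The median of the E2f1/E2f2/E2f3 effect was then -0.04. Over all 12 fits without an array the median departure ranged from -0.14 to 0.10. With all arrays 48 of the 61 mitosis genes lay above 0 in the E2f7/E2f8 knockout (median 0.06; 52.4% of all genes) and 40 in the E2f1/E2f2/E2f3 knockout (median 0.03). G1/S cyclins, kinases and inhibitors had a median departure of 0.03 with 0 of 24 called.

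Targets of p53, the transcription factor activated by DNA damage, mostly had departures below 0. Of 18 measured target genes 15 had a departure below 0 (median -0.55), 3 were called lower (0.302% of all genes) and 0 higher, and the E2f1/E2f2/E2f3 effect (median 0.55) was called higher in 6 and lower in 1, against 1.71% and 1.57% of all genes. Their E2f7/E2f8 effect had a median of 0.01. Apoptosis genes of the same list did not share this, with a median departure of 0.13 and 0 of 11 called. Gadd45a, also known as a p53 target but not on this list, went the other way. Its departure of 3.18 (limma adjusted p = 0.00461) was the highest called, and its call was lost without wild type 5. Without knockout replicate 3 the medians of the whole list of 29 went from -0.30 to -0.19 for the departure and from 0.22 to 0.11 for the E2f1/E2f2/E2f3 effect, both by over 1.5 times. Phlda3, a p53-induced inhibitor of AKT, had signals of 7.24, 7.15 and 7.13 in wild type 1 to 3, 7.13, 7.28, 7.17 and 7.12 in the E2f7/E2f8 knockout, 7.16 and 7.09 in wild type 4 and 5 and 8.20, 8.11 and 8.55 in the E2f1/E2f2/E2f3 knockout. The first 3 groups overlap, and the E2f1/E2f2/E2f3 knockout arrays all lie above them. Its departure was -1.16 (SE 0.16, adjusted p = 0.000151), it was -1.02 without replicate 3, and it kept its call in all 12 fits without an array.

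Mdm2, the ubiquitin ligase that degrades p53, had a departure of -0.65 (SE 0.14, adjusted p = 0.0172), with signals of 9.03 and 9.26 in wild type 4 and 5 and 9.66, 9.63 and 9.89 in the E2f1/E2f2/E2f3 knockout, a call lost without wild type 1, wild type 4 or E2f1/E2f2/E2f3 knockout replicate 3 (adjusted p up to 0.110). Eda2r, a p53-induced receptor, had signals of 4.57, 4.83 and 6.13 in that knockout and 3.86 and 3.83 in its wild type. Its departure of -1.35 (adjusted p = 0.0269) was -0.87 without replicate 3, a change of over 1.5 times, and the call was lost in 4 of the 12 fits (largest adjusted p = 0.0839, without wild type 5). Cdkn1a, the p21 inhibitor of cyclin-dependent kinases, rose by 1.82 in the E2f1/E2f2/E2f3 knockout (SE 0.52, adjusted p = 0.0492; 6.55 and 6.75 against 8.09, 8.32 and 9.005, with no overlap), and the call was lost in 11 of the 12 fits (largest adjusted p = 0.179, without wild type 4). Its E2f7/E2f8 effect was 0.05, and its departure of -1.77 (SE 0.68) had adjusted p = 0.291. Polk and Ddb2, both of DNA damage tolerance or repair, rose by 0.63 and 0.54 in the E2f1/E2f2/E2f3 knockout, and Perp, a p53-induced membrane protein, fell there, at -0.68. Polk kept that call in all 12 fits, while Ddb2 lost it without replicate 3 or wild type 5 (adjusted p = 0.0748 and 0.206) and Perp without wild type 4 (0.0702).

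**Figure D3:**
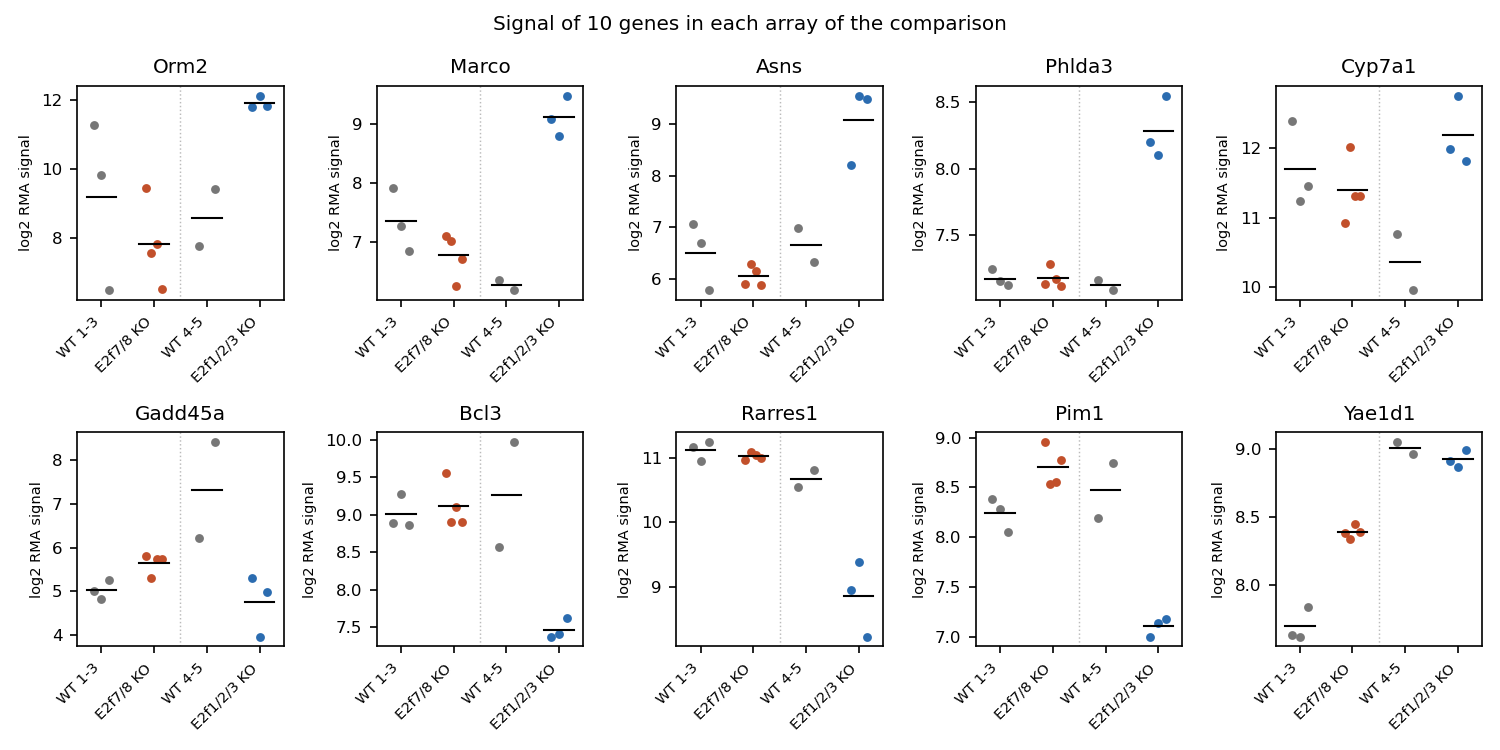
Log2 RMA signal of 10 genes in each array, with wild type in grey, the E2f7/E2f8 knockout in orange and the E2f1/E2f2/E2f3 knockout in blue; short bars are group means, and the dotted line separates the runs. In Orm2, Marco, Asns and Phlda3 the E2f1/E2f2/E2f3 knockout arrays lie above all others, in Bcl3, Rarres1 and Pim1 below all others, and in Yae1d1 the separation is between wild type 1 to 3 and the E2f7/E2f8 knockout.

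The lowest departures belonged to genes that stood higher in livers without the activators. Orm2, an acute-phase glycoprotein of plasma, had signals of 11.28, 9.82 and 6.50 in wild type 1 to 3, 9.45, 7.58, 7.83 and 6.53 in the E2f7/E2f8 knockout, 7.78 and 9.42 in wild type 4 and 5 and 11.80, 12.12 and 11.84 in the E2f1/E2f2/E2f3 knockout. The last were the highest of all 12, in a gene that varied by several units among wild-type arrays. The departure was -4.67 (SE 0.92, adjusted p = 0.0105) and lost its call without wild type 4 (-3.85, adjusted p = 0.0802). Its relative Orm3 had a departure of -2.16 (SE 0.38, adjusted p = 0.00290) that kept its call in all 12 fits, while Orm1 stood at -0.29. These paralogs are alike in sequence, and how far their probes share signal was not tested. The acute phase, complement and coagulation list as a whole had a median departure of 0.15 (0.09 to 0.26 without 1 array), with 23 of 36 above 0, and Orm2 and Orm3 were its 2 called members. Its parts differed. The 19 acute-phase genes had a median of -0.11, with 10 below 0 and 9 above. The 17 complement and coagulation genes had a median of 0.23, with 14 above 0 and 3 below.

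Cyp26a1, the hydroxylase that clears retinoic acid and is induced by it, had signals of 7.95 and 9.17 in wild type 4 and 5 and 11.87, 10.89 and 11.25 in the E2f1/E2f2/E2f3 knockout, without overlap, and 9.11, 9.02 and 10.08 against 7.93, 8.86, 9.57 and 9.16, with overlap, in the other run. Its departure was -3.30 (SE 0.71, adjusted p = 0.0194), lost without wild type 3 or 4 (-2.96 and -2.69, adjusted p = 0.0588 and 0.122). Rarb, a retinoic acid receptor, stood at 6.28 and 6.24 in wild type 4 and 5 against 7.81, 7.68 and 7.60 in the knockout of that run and had a departure of -1.37 (SE 0.26, adjusted p = 0.00700), kept in all 12 fits. Rarres1, named for its response to retinoic acid receptor ligands, went the other way: 10.55 and 10.80 in wild type 4 and 5, 8.95, 9.39 and 8.23 in the E2f1/E2f2/E2f3 knockout and 10.96 to 11.24 in every array of the first run. The E2f1/E2f2/E2f3 knockout arrays were below all others, and the departure of 1.72 (SE 0.24, adjusted p = 0.000169) was kept in all 12 fits. These 3 genes were set together after their values were seen, and other genes of retinoic acid, the hormone-like derivative of vitamin A, were not examined as a list.

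Asns, which makes asparagine and is induced when amino acids run short, stood at 7.06, 6.69 and 5.79 in wild type 1 to 3, 5.91, 6.30, 6.16 and 5.89 in the E2f7/E2f8 knockout, 6.99 and 6.32 in wild type 4 and 5 and 8.20, 9.54 and 9.47 in the E2f1/E2f2/E2f3 knockout. The last lie above every other array, and the departure of -2.87 (SE 0.39, adjusted p = 0.000145) was kept in all 12 fits, at -3.30 to -2.53. Ddit3, the stress transcription factor CHOP, had a departure of -1.66 (SE 0.38, adjusted p = 0.0346), lost without 1 array in 6 of 12 cases (largest adjusted p = 0.165, without wild type 4). Other genes known to be induced along with these did not pass: the departures were 0.46 for Trib3, 0.41 for Chac1, -0.73 for Psat1 and -0.04 for Phgdh, with adjusted p from 0.613 to 0.972.

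Dclre1a, a nuclease that repairs DNA crosslinks, stood at 8.78 and 8.53 in wild type 4 and 5 and 10.58, 10.47 and 10.58 in the E2f1/E2f2/E2f3 knockout, without overlap. Its departure of -2.13 (SE 0.31, adjusted p = 0.000225) was kept in all 12 fits. All 3 of its probe sets were below 0, but they ranged from -2.13 to -0.15. The bile acid synthesis enzyme Cyp7a1 had 10.76 and 9.95 in wild type 4 and 5 against 11.995, 12.76 and 11.81 in the E2f1/E2f2/E2f3 knockout. In the other run it had 12.40, 11.25 and 11.45 in wild type 1 to 3 against 10.92, 12.02, 11.31 and 11.32 in the E2f7/E2f8 knockout. Its departure was -2.14 (SE 0.48, adjusted p = 0.0291). Arrays of the E2f1/E2f2/E2f3 knockout were above wild type 4 and 5 and within the range of the first run or just above it, wild type of the first run minus that of the second being 1.35, and the call was lost in 5 of the 12 fits (-1.74, adjusted p = 0.170, without wild type 5). The fatty acid receptor Cd36 had a departure of -1.76 (adjusted p = 0.0291). Its wild type of the first run minus that of the second was -3.06, and the call was lost in 5 fits (-1.16, adjusted p = 0.226, without wild type 4). The secreted protein gene Tafa2 (-1.99, SE 0.30, adjusted p = 0.000410) and the membrane protein gene Mmd2 (-1.66, SE 0.30, adjusted p = 0.00373) kept their calls in all 12 fits. Departures of the Mmd2 probe sets ranged from -1.81 to -0.16. The monocarboxylate transporter Slc16a5 (-1.90) and Pla2g7, which breaks down platelet-activating factor (-1.66), lost theirs in 9 and 6, with adjusted p up to 0.109 without wild type 5 and 0.203 without wild type 4. Ly6d, of the fetal liver and hepatoma list, had a departure of -1.24 (SE 0.24, adjusted p = 0.00956) and was higher in all 3 E2f1/E2f2/E2f3 knockout arrays (6.99, 8.03 and 7.08) than in every other array.

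The highest departures belonged to genes that were lower in livers without the activators. Bcl3, a cofactor of NF-kB, had signals of 8.89, 9.28 and 8.87 in wild type 1 to 3, 9.56, 8.90, 9.11 and 8.90 in the E2f7/E2f8 knockout, 8.57 and 9.97 in wild type 4 and 5 and 7.37, 7.40 and 7.62 in the E2f1/E2f2/E2f3 knockout. The last are the lowest 3, and the departure was 1.91 (SE 0.32, adjusted p = 0.00167). It was 1.21 without wild type 5, the highest array, with adjusted p = 0.0389. Pim1, a kinase that promotes survival, stood at 8.38, 8.29 and 8.05 in wild type 1 to 3, 8.95, 8.54, 8.55 and 8.77 in the E2f7/E2f8 knockout, 8.20 and 8.75 in wild type 4 and 5 and 7.01, 7.14 and 7.19 in the E2f1/E2f2/E2f3 knockout. It was higher than wild type in all arrays of the first knockout and lower in all of the second. The departure of Pim1 was 1.82 (SE 0.28, adjusted p = 0.000467), kept in all 12 fits, with its other probe set at 0.41. The elastase Cela1 (1.41, SE 0.21, adjusted p = 0.000271) and the mannosyltransferase Dpy19l3 (1.34, SE 0.21, adjusted p = 0.000742) were also kept in all 12.

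Gadd45a, a growth arrest gene induced by DNA damage, had the highest departure, 3.18 (SE 0.58, adjusted p = 0.00461). Signals were 5.02, 4.83 and 5.26 in wild type 1 to 3, 5.80, 5.32, 5.75 and 5.74 in the E2f7/E2f8 knockout, 6.21 and 8.41 in wild type 4 and 5 and 5.31, 3.97 and 4.98 in the E2f1/E2f2/E2f3 knockout. The groups do not overlap within either run, and wild type 5 is far above all other arrays. Without it the departure was 2.08 and the call was lost (adjusted p = 0.0899). The water channel Aqp8 had 8.49, 8.33 and 7.98 in wild type 1 to 3 against 8.91, 9.55, 9.23 and 9.32 in the E2f7/E2f8 knockout. In wild type 4 and 5 it had 9.95 and 10.82, against 9.68, 9.56 and 7.20 in the E2f1/E2f2/E2f3 knockout, again without overlap and in opposite directions. Its departure was 2.56 (SE 0.57, adjusted p = 0.0260), lost without wild type 3 or 5 (adjusted p = 0.0607 and 0.149). Knockout replicate 3 was the lowest array, and without it the departure was 1.76 (adjusted p = 0.0371).

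Among the other high departures, Mup10, a major urinary protein of a family with near-identical members whose probes may share signal, stood at 2.60 (adjusted p = 0.0345), and at 1.73 without E2f1/E2f2/E2f3 knockout replicate 3 (adjusted p = 0.0450). Its call was lost in 6 of the 12 fits, at adjusted p values up to 0.115, without wild type 4. The dehydrogenases Sdr9c7 (1.86) and Hsd17b2 (1.35), the latter an inactivator of sex steroids, lost theirs in 1 and 8 fits, with adjusted p up to 0.0866 and 0.226, each without wild type 4. The odorant-binding protein Obp2a (1.58) and the protease inhibitor Wfdc2 (1.36) lost theirs without wild type 5, where they stood at 1.42 and 0.93 (adjusted p = 0.0862 and 0.107). The anchoring filament protein Lad1 (1.33) did so in 4 fits (up to 0.0985, without wild type 5), and the cyclic GMP phosphodiesterase Pde5a (1.53) without wild type 4 (0.92, adjusted p = 0.0683). Acta2, the smooth muscle actin, stood at 1.42 (adjusted p = 0.0459). Its wild type 5 array was at 9.60 and all others at 7.82 or below, the call was lost in 10 of the 12 fits (0.52 without wild type 5), and 2 of its 3 probe sets had departures below 0.

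Yae1d1 was the called gene that followed the loss of the repressors. Its signals were 7.63, 7.62 and 7.84 in wild type 1 to 3 and 8.38, 8.34, 8.45 and 8.39 in the E2f7/E2f8 knockout, without overlap. In the second run they were 9.05 and 8.96 in wild type 4 and 5 against 8.91, 8.86 and 8.99 in the knockout, with overlap. It rose by 0.69 in the E2f7/E2f8 knockout (SE 0.10, adjusted p = 0.00108), and the departure was 0.77 (SE 0.16, adjusted p = 0.0123), with adjusted p = 0.0523 without wild type 4. Of its 3 probe sets 2 had a departure above 0 and the lowest stood at -0.04. With the probe sets averaged the departure was 0.43 and its call was lost (adjusted p = 0.0962), and 1 of the 2 E2f7/E2f8 calls was kept. The levels in the second run lay above those of the E2f7/E2f8 knockout, so that the knockouts themselves differed by -0.53, the other way. Car14, a carbonic anhydrase, stood at 9.55, 9.31 and 9.01 in wild type 1 to 3 against 9.54, 10.50, 10.43 and 10.21 in the E2f7/E2f8 knockout, with overlap between wild type 1 and knockout replicate 1. In the second run it stood at 10.36 and 10.39 against 10.28, 10.06 and 9.84, without overlap. Its departure was 1.19 (SE 0.28, adjusted p = 0.0380), made up of 0.88 and -0.31, and the call was lost in 8 of the 12 fits (largest adjusted p = 0.109, without wild type 5).

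Markers of macrophages, including the resident Kupffer cells of liver, had medians on either side of wild type in the knockouts. Of 21 markers 19 had a departure below 0, with a median of -0.70, -0.60 without E2f1/E2f2/E2f3 knockout replicate 3, and 4 were called lower (0.302% of all genes). The medians were -0.25 in the E2f7/E2f8 and 0.45 in the E2f1/E2f2/E2f3 effect, with 19 of 21 below and 17 above 0. Summarised per array relative to own wild type, the markers stood at -0.13, -0.34, -0.37 and -0.16 in the E2f7/E2f8 knockout, where wild type 1 to 3 were 0.22, -0.04 and -0.19, and at 0.39, 0.40 and 0.67 in the E2f1/E2f2/E2f3 knockout, where wild type 4 and 5 were -0.16 and 0.16. The first overlaps its wild type and the second does not. Single markers did not overlap wild type, below it, in 4 of 21 in the E2f7/E2f8 knockout (2.39% of all genes) and, above it, in 14 in the E2f1/E2f2/E2f3 knockout (13.2% of all genes). Marco, a scavenger receptor of macrophages, had signals of 7.92, 7.27 and 6.85 in wild type 1 to 3, 7.09, 7.01, 6.25 and 6.71 in the E2f7/E2f8 knockout, 6.35 and 6.18 in wild type 4 and 5 and 9.09, 8.80 and 9.47 in the E2f1/E2f2/E2f3 knockout. The last lie above every other array, and the departure of -3.43 (SE 0.45, adjusted p = 5.91e-05) was kept in all 12 fits.

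Cd5l, a protein secreted by macrophages, had a departure of -1.36 (adjusted p = 0.0352), the lysosomal protein Cd68 of -1.20 (0.0353) and the surface receptor Adgre1, known as F4/80, of -0.96 (0.0385). They lost their calls in 8, 9 and 7 of the 12 fits, at adjusted p values up to 0.0972 without wild type 1, and 0.132 and 0.189 without wild type 4. Capg (-0.94, adjusted p = 0.000298) and Ms4a7 (-0.86, adjusted p = 0.00246), both known from macrophages and outside the list, were kept in all 12. Clec4n (-1.23) and the leukocyte integrin Itgb2 (-1.02) were called with adjusted p = 0.0141 and 0.0300. Both calls were lost without wild type 4 (adjusted p = 0.122 and 0.185), and that of Itgb2 in 6 of the 12 fits. The E2f7/E2f8 effects of Capg, Ms4a7, Clec4n and Itgb2 were -0.01, 0.14, 0.06 and -0.24. In that knockout every array lay above wild type for Ms4a7 and below it for Itgb2. The Kupffer cell receptors Clec4f and Timd4 did not follow, with departures of -0.30 (SE 0.33) and 0.04 (SE 0.31), adjusted p = 0.841 and 0.986. Timd4 was 5.80, 5.77 and 6.72 in the E2f1/E2f2/E2f3 knockout, with replicate 3 the highest, and 6.50 and 6.69 in its wild type. Markers of other cells had median departures of -0.13 (sinusoidal endothelium), -0.38 (stellate cells and matrix), -0.06 (neutrophils), 0.04 (T and NK cells) and 0.02 (hepatocytes). Without E2f1/E2f2/E2f3 knockout replicate 3 these were -0.15, -0.41, -0.35, -0.04 and 0.01, and over all 12 fits without an array they ranged from -0.30 to -0.02, -0.44 to -0.21, -0.35 to 0.04, -0.04 to 0.09 and -0.01 to 0.03. Departures were called in these lists only among stellate and matrix genes, Acta2 higher and Timp1, an inhibitor of matrix proteases, lower (-0.87, adjusted p = 0.0163; 0.0952 without wild type 5). The endothelial receptor Lyve1 rose by 1.68 in the E2f1/E2f2/E2f3 knockout (adjusted p = 0.00626), a call lost without wild type 4 (0.178), with a departure of -1.83 at adjusted p = 0.0597. The sinusoidal endothelial list did not rise with it. In the E2f1/E2f2/E2f3 effect 14 of its 22 members lay below 0 and 8 above (median -0.09), with 1 called higher and 2 lower.

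**Figure D4:**
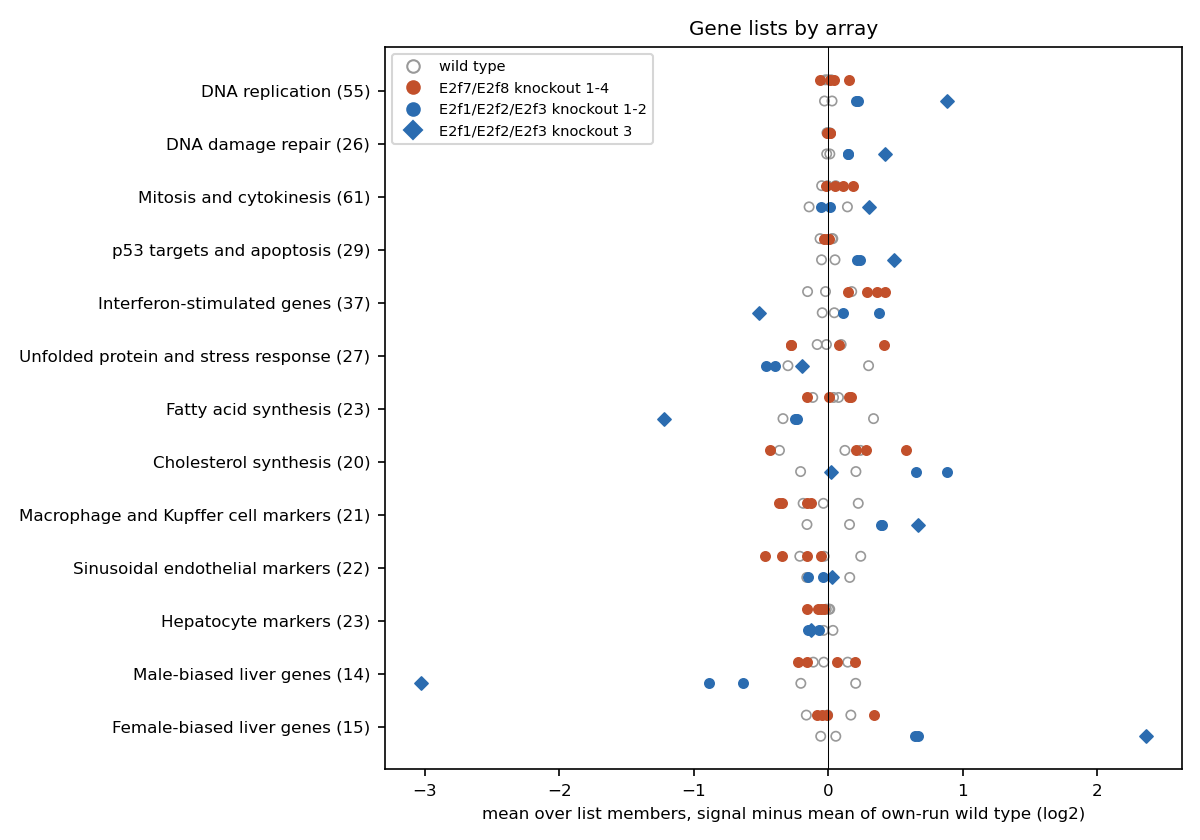
Mean signal of the members of 13 gene lists in each array, minus the mean of the wild-type arrays of the same run (log2; number of genes in brackets). Open circles are wild type, orange circles the E2f7/E2f8 knockout and blue symbols the E2f1/E2f2/E2f3 knockout, with replicate 3 as a diamond. Macrophage and p53 lists are above wild type in all 3 blue arrays, and replicate 3 lies far out in the male-biased, female-biased and replication lists, at -3.03, 2.36 and 0.88.

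Genes of the endoplasmic reticulum stress response, many of them chaperones that fold secreted proteins, had departures above 0 in 17 of 20 (median 0.47), made up of medians of 0.00 in the E2f7/E2f8 and -0.47 in the E2f1/E2f2/E2f3 effect. With heat shock genes included the list's median departure was 0.41, and 0.21 without wild type 5. Calr, which encodes the calcium-binding chaperone calreticulin, was the member called higher. It stood at 13.53, 13.50 and 13.37 in wild type 1 to 3, 13.77, 13.69, 13.77 and 13.48 in the E2f7/E2f8 knockout, 13.32 and 13.17 in wild type 4 and 5 and 12.87, 12.82 and 12.68 in the E2f1/E2f2/E2f3 knockout, overlapping in the first run and separate in the second. Its departure was 0.67 (SE 0.14, adjusted p = 0.0123), lost without wild type 4 (0.60, adjusted p = 0.0725). Xbp1, a transcription factor of this response, fell in the E2f1/E2f2/E2f3 knockout, at -0.96 (SE 0.16, adjusted p = 0.000717), a call lost without wild type 5 (0.0586), and its departure of 0.85 had adjusted p = 0.0536. The chaperone Hspa5 had a departure of 0.67 (adjusted p = 0.252). Ddit3 was the list member called lower, against the rest. Averaged per array, this longer list stood at -0.30 and 0.30 in wild type 4 and 5 and -0.47, -0.40 and -0.19 in the E2f1/E2f2/E2f3 knockout relative to own wild type, which overlap, and at 0.41, -0.28, 0.08 and -0.28 in the E2f7/E2f8 knockout.

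Lipid synthesis lists leaned in opposite directions, with 0 called departures in either. Cholesterol synthesis genes had departures below 0 in 14 of 20 (median -0.35, -0.63 without E2f1/E2f2/E2f3 knockout replicate 3). The median was nearer 0 without E2f7/E2f8 knockout replicate 1 (-0.04), wild type 4 (-0.06), E2f1/E2f2/E2f3 knockout replicate 2 (-0.13), wild type 1 (-0.15) or wild type 2 (-0.22), and further from it without wild type 5 (-0.63) or 3 (-0.60). Fdft1, which makes squalene, rose by 1.53 in the E2f1/E2f2/E2f3 knockout (SE 0.28, adjusted p = 0.00135; 10.54 and 10.82 against 12.40, 12.68 and 11.54, with no overlap), and its departure of -1.39 had adjusted p = 0.0660, and 0.0101 without replicate 3. The rise of Fdft1 kept its call in all 12 fits. The sterol oxidase Msmo1 rose by 1.25 (adjusted p = 0.0313), a call lost in 4 (up to 0.154, without wild type 4). Fatty acid synthesis genes had departures above 0 in 19 of 23 (median 0.39, 0.21 without replicate 3, 0.14 without wild type 5 and 0.74 without wild type 4). The desaturase Scd1 fell in the E2f1/E2f2/E2f3 knockout, at -2.34 (SE 0.53, adjusted p = 0.0104), from 14.17 and 14.57 to 13.28, 12.61 and 10.19, with a departure of 2.06 (adjusted p = 0.195) and a call lost without replicate 3 (-1.42, adjusted p = 0.0731) or wild type 5 (adjusted p = 0.118).

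Genes that differ between male and female liver gave the largest median departures of the 33 lists, and none of their members was called. Male-biased genes were above 0 in 13 of 14 (median 1.25) and female-biased genes below 0 in 13 of 15 (median -1.37). Per array the male-biased genes stood at -0.89, -0.63 and -3.03 in the E2f1/E2f2/E2f3 knockout relative to own wild type and the female-biased genes at 0.66, 0.65 and 2.36, with replicate 3 far from the others. Without it the medians were 0.45 and -0.38, smaller in size than those of the cholesterol synthesis (-0.63) and macrophage (-0.60) lists. The E2f7/E2f8 knockout stayed near wild type, with medians of -0.03 and 0.05. Signal of Y-linked Eif2s3y was 8.28 to 9.27 over the 12 arrays and that of Xist 5.67 to 6.91. The steroid dehydrogenase Hsd3b5, high in male liver, fell in the E2f1/E2f2/E2f3 knockout, at -3.11 (SE 0.84, adjusted p = 0.0347): its arrays were 10.85, 11.26 and 6.85, against 13.36 and 12.18 in wild type. The cytochrome P450 gene Cyp2b9, high in female liver, rose by 4.59 (SE 1.30, adjusted p = 0.0464), with 9.32, 8.85 and 13.19 against 4.95 and 6.77. Both lie beyond wild type in every array, both calls were lost without replicate 3 (adjusted p = 0.214 and 0.223) and without wild type 4 (0.221 and 0.258), and the departures of 2.99 and -4.63 had adjusted p = 0.253 and 0.254. Ugt2b38, a male-biased glucuronosyltransferase, fell also without replicate 3 (-3.83 with all arrays, -3.23 without, adjusted p = 0.00424 and 0.0338), and lost its call without wild type 4 (0.0661).

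Interferon-stimulated genes had departures above 0 in 34 of 37, 0 of them called, with a median of 0.26. Here the E2f7/E2f8 effect was the larger part (median 0.26, above 0 in 34), and 9 genes had all E2f7/E2f8 knockout arrays above wild type, as did 3.5% of all genes. Per array the list stood at 0.29, 0.36, 0.42 and 0.15 in the E2f7/E2f8 knockout and 0.17, -0.02 and -0.15 in wild type 1 to 3, with overlap between knockout replicate 4 and wild type 1. Arrays of the other knockout were split: 0.37, 0.11 and -0.52 in replicates 1 to 3, relative to own wild type. Without replicate 3 the median departure was 0.02 and 19 genes were above 0. Median departures nearer 0 were found for bile acid (-0.09), polyploidy and endocycle (-0.08) and glucose and amino acid genes (-0.10), in which Cyp7a1, Mdm2 and Asns were the called members. Without E2f1/E2f2/E2f3 knockout replicate 3 these medians were -0.05, 0.02 and -0.08. The polyploidy and endocycle median thus changed sign, with 10 members above 0 and 8 below.

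**Figure D5:**
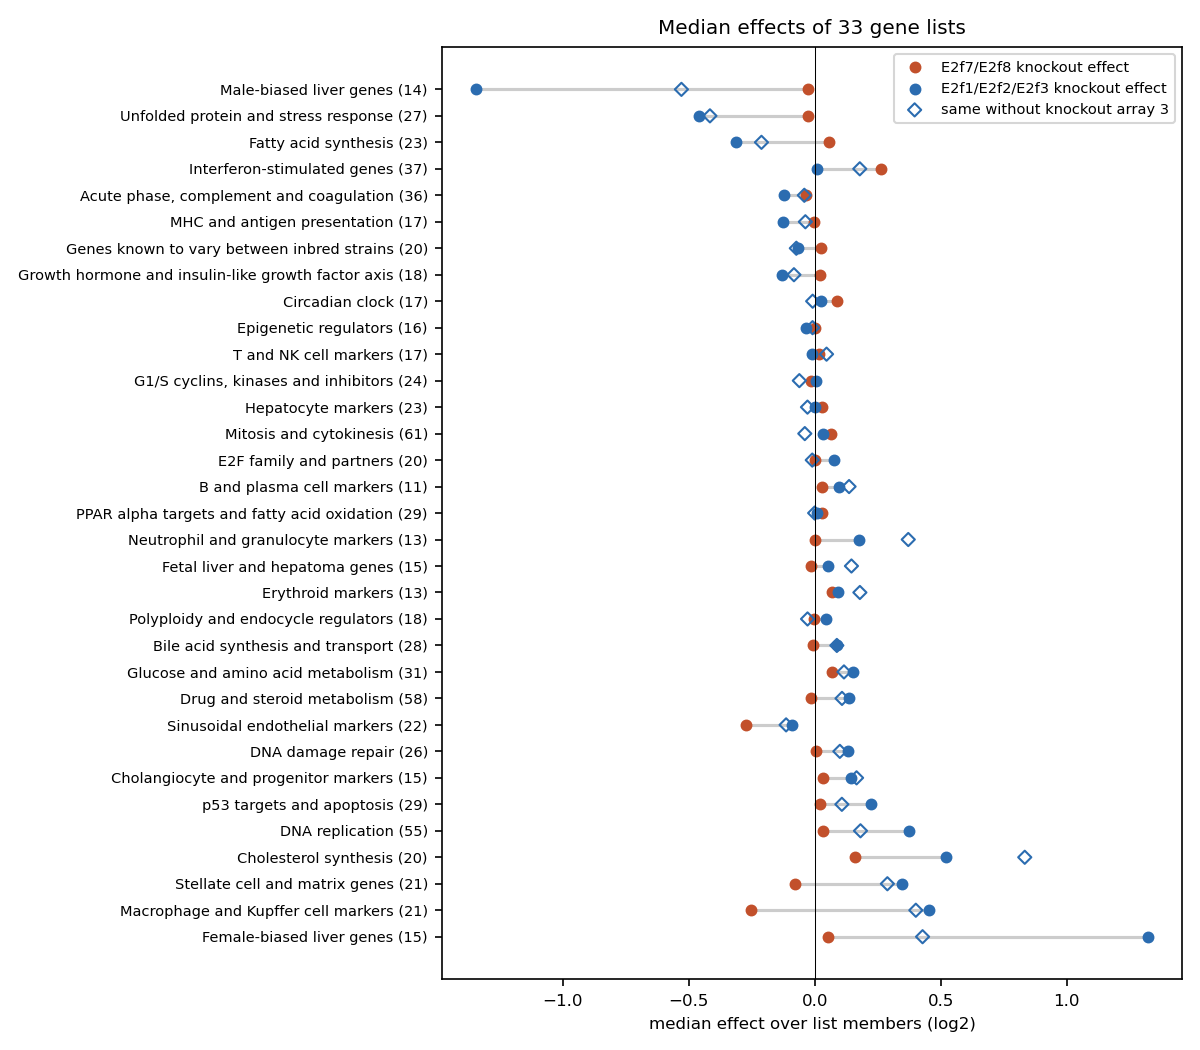
Median effect over the members of each of 33 gene lists (log2), ordered by the median departure, with the E2f7/E2f8 knockout in orange and the E2f1/E2f2/E2f3 knockout in blue, joined by a line; open diamonds are the E2f1/E2f2/E2f3 median without replicate 3. Orange points stay within -0.27 and 0.26, while blue points run from -1.34 for male-biased to 1.32 for female-biased genes and move to -0.53 and 0.43 without replicate 3.

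The wild-type arrays of the runs differed more than the knockouts did in 30 of the 122 called genes, and in 7 the knockouts, compared directly, differed in the opposite direction from the departure. H2-Eb1, an MHC class II gene that varies between inbred strains, was 6.57, 6.45 and 6.28 in wild type 1 to 3 and 6.46, 6.57, 6.45 and 6.56 in the E2f7/E2f8 knockout. It was 8.38 and 8.58 in wild type 4 and 5 and 7.88, 8.04 and 7.60 in the E2f1/E2f2/E2f3 knockout. All arrays of the second run were higher, and within it the knockout was lower than wild type. Its departure was 0.72 (adjusted p = 0.0401), a call lost in 8 of the 12 fits (largest adjusted p = 0.187, without wild type 5). The glutathione transferase gene Gstp3 was 13.68 to 13.84 in every array of the first run, 8.25 and 8.75 in wild type 4 and 5 and 7.46, 7.44 and 7.44 in the E2f1/E2f2/E2f3 knockout. Its departure of 1.03 (SE 0.10, adjusted p = 5.98e-07) was kept in all 12 fits, beside a difference of 5.29 between wild-type arrays labelled alike. Genes listed as varying between inbred strains had a median departure of 0.13, with 1 of 20 called, and the part of the background in the departures was not tested.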

How the data were processed

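The samples were mouse liver RNA on Affymetrix 45101-probe-set arrays, and the values are log2 signals that the authors deposited after RMA summarization, per the submitters' processing notes, with no version given. The deposited log2 values fell into runs of separate normalization, found from the array quantiles (mean gap within runs 0.0203 and 0.0313, between them 0.122). RMA makes arrays of a run comparable, so each knockout was set against the wild type of its own run. Of the probe sets, 34945 had a single symbol, and the highest by mean over 35 arrays was kept for each of 18193 genes. limma 3.58.1 in R 4.3.3 fitted 9 group means and a term for the run of the E2f1/E2f2/E2f3 knockout, with an intensity trend and 25 residual degrees of freedom, so that all arrays shared the estimate of the spread. A call is a Benjamini-Hochberg adjusted p under 0.05 over all genes. The number of arrays limits the precision, and read depth has no counterpart here. On simulated data of 18193 genes the fit recovered 11, 45, 50 and 50 of 50 genes changed by 0.5, 1, 2 and 4 log2, with 14 false calls. The changes were placed in the E2f7/E2f8 knockout arrays alone, with the same spread in every group. How far the recovery holds with the wider spread between arrays of the second run was not tested.

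The genes and lists were chosen with earlier results of these data known. The naming rule took the 5 targeted genes, the 15 highest and 15 lowest called departures, called genes by which effect was called, and up to 3 called members of each of 33 lists, leaving clone names out. Named outside it, after their values were seen, were Gm2788, Rbl1, the 8 replication genes, Brca1, Chek1, Cdkn1a, Polk, Ddb2, Perp, Adgre1, Capg, Ms4a7, Clec4n, Itgb2, Clec4f, Timd4, Lyve1, Xbp1, Hspa5, Trib3, Chac1, Psat1, Phgdh, Fdft1, Msmo1, Scd1, Hsd3b5, Cyp2b9, Ugt2b38, Car14, Gstp3, Orm1, Mcm10 and the genes named as neighbours of E2f genes. Same-numbered replicates of the groups deviated from their means with correlations of -0.17 to 0.17, so the numbers were not taken to pair samples. Alternatives were fits on fewer arrays, quantile normalization, no run term, no dim genes, mean of probe sets, no trend, array weights, a replicate block and each array left out.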

Additional observations from a re-analysis of the deposited data

Results flagged for a closer look

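Of 124 values tested in the 4 E2f7/E2f8 knockout arrays, 5 had a highest or lowest array whose gap to the nearest other was above Dixon's critical share of the range, where chance gives about 1 in 20. Rarb stood at 5.19 in replicate 1, the lowest of 5.19, 5.93, 5.998 and 6.03, and Gadd45a at 5.32 in replicate 2, the lowest of 5.80, 5.32, 5.75 and 5.74. The mean of the MHC and antigen presentation genes was 8.57 in replicate 4 and that of the fetal liver and hepatoma genes 6.17 in replicate 1. The mean of the female-biased genes was 5.78 in replicate 4, the highest of 5.43, 5.39, 5.36 and 5.78. Groups of 3 and fewer arrays, the E2f1/E2f2/E2f3 knockout and wild type, were too small for this check.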

How the results depend on the processing

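The count of called departures was 122. It was 17 when only the 12 arrays were fitted (16 of them among the 122), 96 on the 2-month arrays, 96 after quantile normalization (43 higher and 53 lower), 121 without the dimmest 40% of genes, 117 with probe sets of a gene averaged, 122 without the intensity trend, 76 with array weights and 10351 with no run term. The E2f7/E2f8 effect had 1 call on the 12 arrays, 4 on the 2-month arrays, 1 with the mean of probe sets, 13 with array weights and 6 with no run term, and the E2f1/E2f2/E2f3 effect had 101 on the 12 arrays, 189 with array weights and 6167 with no run term. The fit with replicate number as a block gave 42 departures (30 of the 122), 3 E2f7/E2f8 and 182 E2f1/E2f2/E2f3 calls, although the numbers do not pair the samples. Leaving out each array gave 74 to 218 departures, 2 to 5 E2f7/E2f8 and 245 to 767 E2f1/E2f2/E2f3 calls. The cause was not tested, except that with no run term the difference between runs enters the effects by construction.

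With no run term the departures of E2f1, E2f2 and E2f7 turned to -0.12, -1.23 and 0.037, that of Acta2 to -0.32, Yae1d1 to -0.53, H2-Eb1 to -1.33, Cdk5rap1 to -1.05, Clec4f to 0.25, Trib3 to -0.88 and Psat1 to 0.022. With the replicate block E2f1 stood at -0.11, Chac1 at -0.090 and Phgdh at 0.14, and with array weights E2f2 stood at -0.056 and E2f3 at 0.024. Without 1 array the uncalled departures of E2f1 lay at -0.074 to 0.090, E2f2 at -0.13 to 0.13, Timd4 at -0.12 to 0.35 and Phgdh at -0.14 to 0.053.

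Of 49 called genes followed, all kept their direction except 4 with no run term. Quantile normalization left 44 past the threshold, the 12 arrays alone 12, and leaving out 1 array 28 to 48. Medians of the 33 lists stayed within 1 standard deviation for all lists after quantile normalization. They did so for 26 without E2f1/E2f2/E2f3 knockout replicate 3 and 25 without wild type 4. Fits that dropped only arrays outside the 12 could not move a direction or a median. Each departure is a difference of group means within the 12, so those fits bear only on the calls.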

Other observations

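The targeted E2f genes were compared with their neighbours. Among the 50 tested genes on each side of E2f1, 12 of 100 had a called E2f1/E2f2/E2f3 effect, against 3.28% of all genes, and 3 a called departure, against 0.671%. Cdk5rap1, 7 genes away, had a departure of 1.11 (SE 0.18, limma adjusted p = 0.00103), with signals of 6.67, 6.62 and 6.42 in wild type 1 to 3, 6.69, 6.81, 6.86 and 6.95 in the E2f7/E2f8 knockout, 8.52 and 8.95 in wild type 4 and 5 and 8.01, 7.82 and 7.81 in the E2f1/E2f2/E2f3 knockout. H13 and Edem2, 38 and 22 genes away, had departures of 0.42 and 0.68 (limma adjusted p = 0.0352 and 0.0123). H13 lost its call in 6 of the 12 fits (up to 0.243, without wild type 5) and Edem2 without wild type 5 (0.0566). Around E2f2 the counts were 3 and 1 (Cep85, at 1.04), around E2f3 4 and 1 (Slc17a3, at 1.11), around E2f7 6 and 3 (Glipr1, Tmem19 and Mdm2), and around E2f8 1 and 0. Those around E2f2, E2f3 and E2f8 were near or below the 3.28% and 0.671% of all genes. Slc17a3 lost its call in 3 fits and Glipr1 and Tmem19 in 2 each, while Cep85 and Cdk5rap1 kept theirs in all 12. Neighbour order was taken from the RefSeq annotation of build GRCm38.p6.

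Sinusoidal endothelial markers were below wild type in 20 of 22 genes in the E2f7/E2f8 knockout (median -0.27) and in 14 in the E2f1/E2f2/E2f3 knockout (median -0.09), with 0 called in the E2f7/E2f8 effect or the departure. Per array relative to own wild type they stood at -0.06, -0.47, -0.34 and -0.16 in the E2f7/E2f8 knockout and -0.03, -0.21 and 0.24 in wild type 1 to 3, which overlap.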
